A study of Canis lupus familiaris with 10 samples.

Results

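miR-31, listed as cfa-miR-31, was followed through all 10 small RNA libraries of dog lymph nodes, as 1 of the 320 miRNAs in the deposited table and 1 of the 247 that passed the filter on low counts. It was chosen because its level differed between the groups in these same libraries, so its levels and its difference between the groups are given as a description, with no test. Fresh-frozen nodes came from 6 dogs with diffuse large B-cell lymphoma (DLBCL) and 4 healthy dogs, 1 library per dog. The labels gave tissue and disease state, and no treatment, strain or age. The DLBCL nodes were surgical biopsies taken under anesthesia from patients, in which the neoplastic cells expressed B-cell proteins and lacked CD3. The healthy nodes came from purpose-bred research dogs after euthanasia. The study's animal records list them as young females of a single hound cross, and the DLBCL patients as both sexes and other breeds. Diagnosis therefore cannot be told apart from origin, breed, sex, age or way of sampling.

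A miRNA is a short RNA that guides a silencing complex to complementary sites in messenger RNAs and lowers their translation or stability. miR-31 is known from other tissues for opposite roles. In T-cell leukemia it is lost, and with it the repression of the kinase NIK, which switches on NF-kB signaling. In some carcinomas it is abundant and represses RASA1, a protein that turns RAS off. The human gene is a neighbour of MTAP and of the cell cycle inhibitor genes CDKN2A and CDKN2B, a stretch that is often deleted in cancer. The order of genes in the dog annotation UU_Cfam_GSD_1.0 was the same: IFNE, an interferon gene, lay on one side of MIR31, and MTAP, CDKN2A and CDKN2B followed on the other. The miRNA genes next in order were MIR491 and MIR8831, with MIR874 and MIR876 further out.

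The libraries held 10686441 to 25784861 miRNA reads in DLBCL and 30432969 to 34709421 in healthy nodes. The 5 lymphocyte miRNAs checked (miR-142, miR-150, miR-155, miR-181a and miR-342) were detected in every library. 1 miRNA, miR-148a, took 17.8% to 39.0% of the reads in DLBCL and 51.5% to 73.6% in healthy nodes. Levels were therefore given as counts per 1000000 reads after TMM scaling (CPM), in which edgeR adjusts each total so that most miRNAs keep their level between libraries. The deposited TPM values were reads per 1000000 miRNA reads without this adjustment. The libraries also fell into 2 groups of base quality in the study's sequencing statistics (Q30, the share of bases called at high quality). DLBCL1, DLBCL2, DLBCL3 and DLBCL5 had the higher Q30. DLBCL4, DLBCL6 and all 4 healthy libraries had the lower one.

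In DLBCL, miR-31 was at 235 CPM in DLBCL1, 136 in DLBCL2, 165 in DLBCL3, 529 in DLBCL4, 64.2 in DLBCL5 and 612 in DLBCL6. In healthy nodes it was at 19.3 CPM in Healthy2, 25.8 in Healthy3, 17.6 in Healthy4 and 30.02 in Healthy5. Each DLBCL library lay above each healthy library, and the lowest of them, DLBCL5, was 2.14-fold above the highest healthy one. DLBCL nodes averaged 290.2 ± 226 CPM (SD, n = 6). Healthy nodes averaged 23.2 ± 5.74 CPM (SD, n = 4), which gives a ratio of 12.5. These are bulk samples, in which more cells that hold miR-31 and more miR-31 per cell cannot be told apart.

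The reads behind these levels were 2811, 3469, 3504, 14993, 986 and 24721 in DLBCL1 to DLBCL6, and 340, 703, 336 and 1024 in Healthy2 to Healthy5. On the TPM scale DLBCL6 was at 1245 (Wilson 95% interval 1229 to 1260) and DLBCL5 at 44.8 (42.1 to 47.7). Healthy5 was the highest healthy library at 33.3 TPM (31.3 to 35.4). The intervals cover counting error only, and even on this scale the highest healthy and the lowest DLBCL library were separated by more than that error. Healthy2 at 9.80 TPM (8.81 to 10.9) and Healthy4 at 11.0 TPM (9.92 to 12.3) were not.

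**Figure D1:**
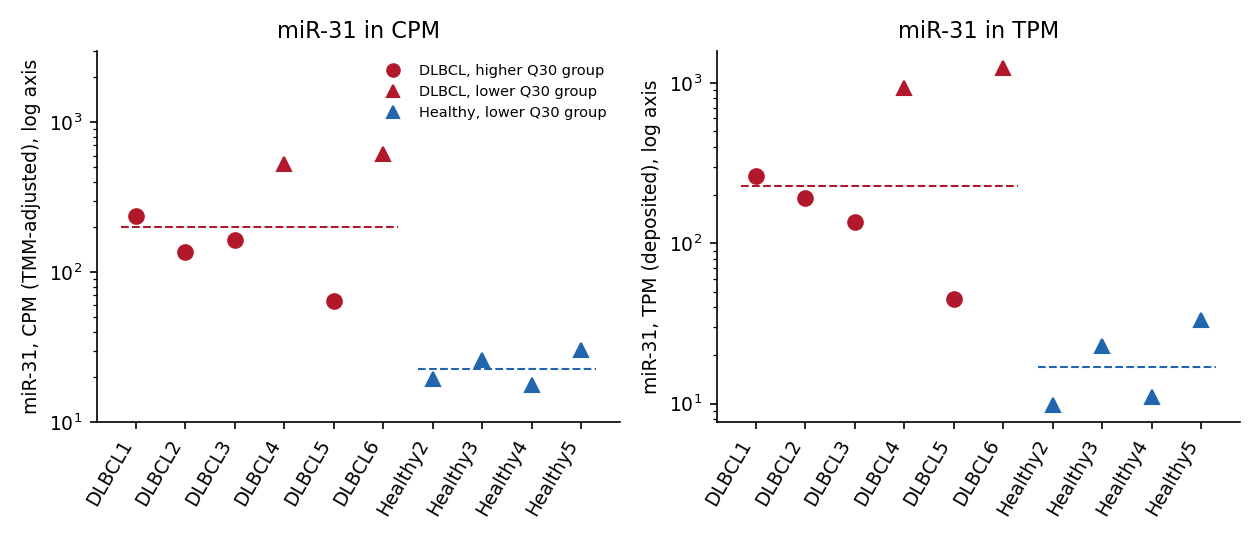
miR-31 in each of the 10 libraries, in TMM-adjusted CPM (left) and in the deposited TPM (right), both on log axes; dashed lines are group medians and marker shapes give the Q30 group. Every DLBCL library lies above every healthy one on both scales, and DLBCL4 and DLBCL6 are the highest.

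Against the other miRNAs, miR-31 stood higher in DLBCL than in healthy nodes. It ranked 125 to 135 by reads among the 320 listed miRNAs in the healthy libraries and 54 to 98 in the DLBCL libraries. By mean CPM among the 247 miRNAs it was at position 132 in healthy nodes, between miR-7180 at 23.8 ± 11.1 CPM and miR-8859a at 22.2 ± 3.81 CPM (SD, n = 4). In DLBCL it was at position 81, between miR-34a at 295 ± 270.1 CPM and miR-96 at 256 ± 297 CPM (SD, n = 6). In both places the neighbours differed from miR-31 by far less than the spread between libraries.

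The log2 fold change of miR-31, DLBCL over healthy, was 3.64 (SE 0.69) in the edgeR quasi-likelihood fit. 7 of 247 miRNAs had a larger one. 4 of these were differentially expressed miRNAs (DEMs), defined in that fit by a Benjamini-Hochberg adjusted p under 0.05 together with a log2 fold change above 1 or below -1. They were miR-34a, a p53 target, at 4.0 (SE 1.05), and 3 miRNAs of red blood cells. Those were miR-451 at 4.53 (SE 0.60), miR-486 at 4.87 (SE 1.20) and miR-486-3p at 4.87 (SE 1.20). The last 2 gave nearly the same counts in every library. Whether the same reads were counted for both was not tested. The other 3 were miR-508b at 5.23 (SE 1.62), miR-507a at 4.82 (SE 1.69) and miR-183 at 3.68 (SE 1.41). Both miR-508b and miR-507a were below 1 CPM in all healthy libraries, and in DLBCL miR-508b reached 1 CPM in 2 libraries and miR-507a in 3.

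17 of 247 miRNAs (6.88%) had all DLBCL libraries above all healthy ones, and 15 (6.07%) had all below. Among the 17, the 2.14-fold gap of miR-31 ranked second, after miR-451 with 5.10-fold and before miR-664 with 1.65-fold. miR-34a, next to miR-31 in mean level in DLBCL, was at 4.05 CPM in DLBCL3, below all 4 healthy libraries.

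**Figure D2:**
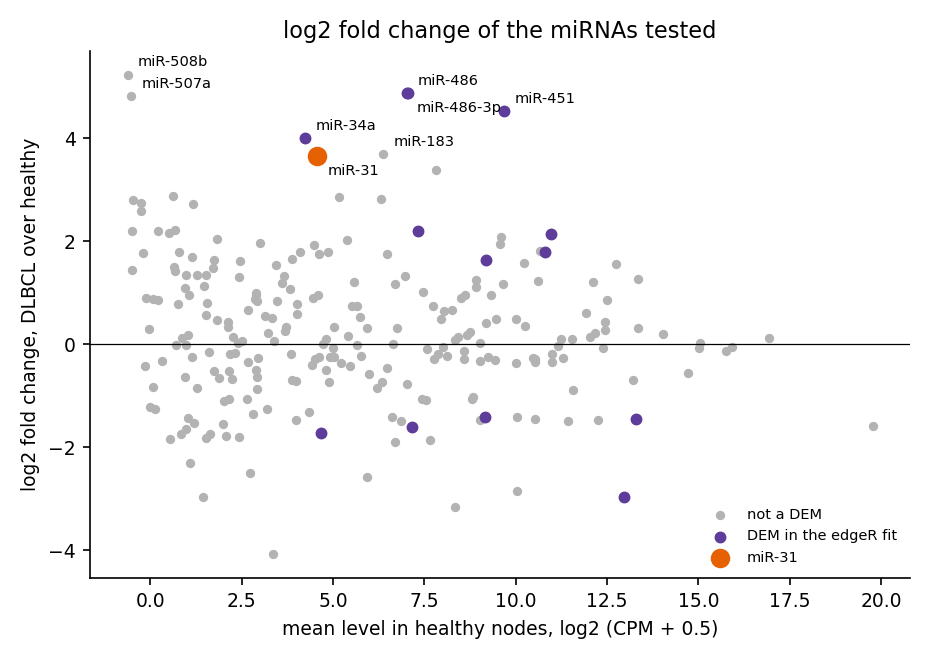
Log2 fold change (DLBCL over healthy) of the 247 miRNAs tested against their mean level in healthy nodes, on a log2 (CPM + 0.5) axis; violet points are DEMs and the orange point is miR-31. miR-31 has the eighth largest fold change, from a low level in healthy nodes, and 7 named miRNAs lie above it.

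In all, 14 of 247 miRNAs (5.67%) were DEMs. 9 were higher in DLBCL (3.64%) and 5 lower (2.02%), while 137 (55.5%) had a fold change above 0. miR-31 is one of the 9, which its choice used. The count itself was unstable. It fell to 3 without DLBCL1, 2 without Healthy2, 5 without Healthy3, 1 without Healthy4 and 6 without Healthy5, and rose to 22 without DLBCL3 and 23 without DLBCL4. With total reads in place of TMM it was 23, of which 22 were higher and 1 lower, and the median fold change of all miRNAs moved from 0.13 to 0.82. 12 of the 13 other DEMs lost their call when 1 library or another was left out. miR-451 lost it under none of the alternatives run. It was thus the only DEM left without Healthy4, where miR-31 lost its call too.

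The fold change of miR-31 kept its sign throughout. Leaving out 1 library at a time gave 3.31 (without DLBCL6) to 3.85 (without DLBCL5). DESeq2 gave 3.65 (SE 0.60) and limma-voom with sample quality weights 3.38 (SE 0.46). Total reads gave 4.60 (SE 1.02), the largest error of these fits. Scaled to miR-361, miR-101 and miR-29c, the reference miRNAs of the study's RT-qPCR, it was 2.79. miR-29c itself had a fold change of 1.92 (SE 0.68, adjusted p = 0.109, edgeR) and r = 0.87 with miR-31 in DLBCL, and enters this ratio as a divisor. On that scale the DLBCL libraries lay between -1.27 and 1.19 and the healthy ones between -3.11 and -2.22 (log2 ratio), again without overlap. This last scaling was added after the data had been seen.

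**Figure D3:**
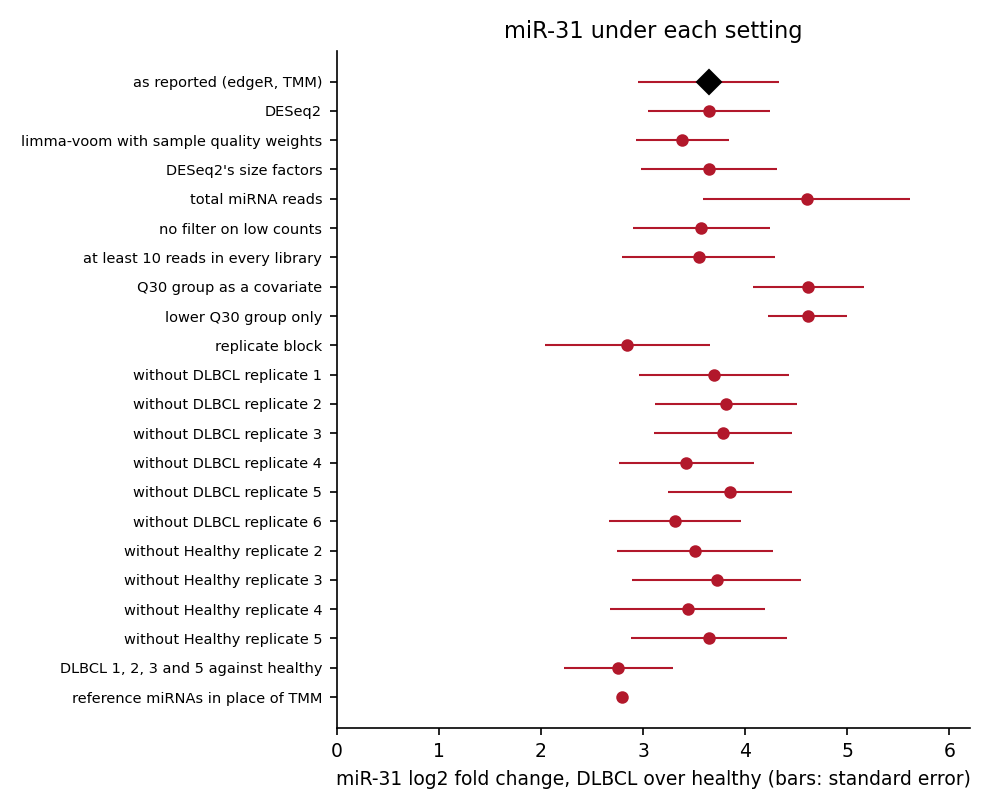
Log2 fold change of miR-31 (DLBCL over healthy, horizontal axis) as reported and under each alternative; bars are standard errors, and the reference-miRNA value has none. All values lie above 2, from 2.76 (DLBCL 1, 2, 3 and 5 only) to 4.62 (Q30 group as a covariate).

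Within DLBCL the libraries were spread over a 9.54-fold range in CPM and a 27.8-fold range in TPM. The SD of log2 CPM was 1.23 (n = 6), rank 95 among the 247 miRNAs, and 0.36 in healthy nodes (n = 4), rank 184. A spread of this size was thus common among miRNAs in DLBCL. In order of level, the gaps between neighbouring DLBCL libraries were 1.08 (DLBCL5 to DLBCL2), 0.28, 0.51, 1.17 (DLBCL1 to DLBCL4) and 0.21 on the log2 scale, and no gap set 1 cluster clearly apart.

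The order followed the Q30 groups. DLBCL4 and DLBCL6, the DLBCL libraries of the lower Q30 group, were the highest, at 571 ± 59.1 CPM (SD, n = 2) against 150 ± 70.8 CPM (SD, n = 4) in the others. The ratio was 3.80 in CPM and 6.84 in TPM. In the study's RT-qPCR cycles, before scaling to reference miRNAs, miR-31 was also highest in DLBCL6 and DLBCL4. DLBCL3 came close behind DLBCL4 there, unlike in CPM. Among the DLBCL nodes it was lowest in DLBCL5 there too, barely above the highest healthy node. After scaling to reference miRNAs, the study reported miR-31 as significantly higher in DLBCL. In the libraries, the difference of mean log2 CPM between the Q30 groups of DLBCL, 2.07, was the 19th highest of 247 as a signed value. Larger differences in the opposite direction also occurred, such as -3.21 for miR-187. The 6 libraries can be split into 2 and 4 in 15 ways, so the smallest two-sided p of an exact permutation test is 0.0667 and that test could not pass 0.05. Within the lower Q30 group the fold change of miR-31 over healthy nodes was 4.61 (SE 0.39). With DLBCL1, DLBCL2, DLBCL3 and DLBCL5 against healthy nodes, a comparison added after the data had been seen that joins both Q30 groups, it was 2.76 (SE 0.54). The higher Q30 group holds no healthy library, so that no value within it exists. In the lower Q30 group 4 of the 7 miRNAs with larger fold changes fell below miR-31: miR-451 was at 3.05, miR-486 at 1.83, miR-486-3p at 1.80 and miR-183 at -1.53. DLBCL4 and DLBCL6 are the DLBCL libraries highest in miR-31 and lowest in each of these 4. The larger fold change of miR-31 and the change of order there therefore restate those levels.

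Library composition moved with miR-31 as well. Over the 6 DLBCL libraries, log2 miR-31 CPM and the log2 TMM factor had r = 0.87 (exact permutation p = 0.0319, adjusted p = 0.0479 over 6 relations) and rho = 0.83 (adjusted p = 0.0875). The share of reads taken by miR-148a had r = -0.83 (exact permutation p = 0.0278, adjusted p = 0.0479) and rho = -0.83 (adjusted p = 0.0875). Without DLBCL5 and DLBCL6, the libraries farthest from the median level of miR-31, these r values were 0.61 and -0.63. In TPM they were 0.94 and -0.87 over all 6. This is no independent check, because TPM is in effect CPM multiplied by the TMM factor. A larger miR-148a share also lowers the TPM of every other miRNA. The same relations were not counted for the other miRNAs, so they cannot be called particular to miR-31. Total reads had r = -0.29 (exact permutation p = 0.604). Libraries rich in miR-31 thus had less of their reads in miR-148a. The part of composition in the level of miR-31 was not tested.

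Which miRNAs varied together with miR-31 among the DLBCL nodes was asked across the 246 other miRNAs tested, by Pearson's r of log2 CPM over the 6 libraries. 31 of them (12.6%) reached an absolute r of 0.8, 18 with a positive and 13 with a negative r. With each other miRNA in the place of miR-31 this count was 1 to 97 with a median of 36.5, and 133 of them (54.1%) had more. By exact permutation over the 720 orders of the libraries, 24 miRNAs had an unadjusted p under 0.05 for r and 9 for rho. None passed the Benjamini-Hochberg adjustment over the 246 relations, with the smallest adjusted p at 0.445 for r and 0.624 for rho. The count was 58 without DLBCL2 and 63 without DLBCL3. With total reads it was 69, of which 66 were positive. The number of miRNAs that moved with miR-31 was thus ordinary for these 6 libraries.

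**Figure D4:**
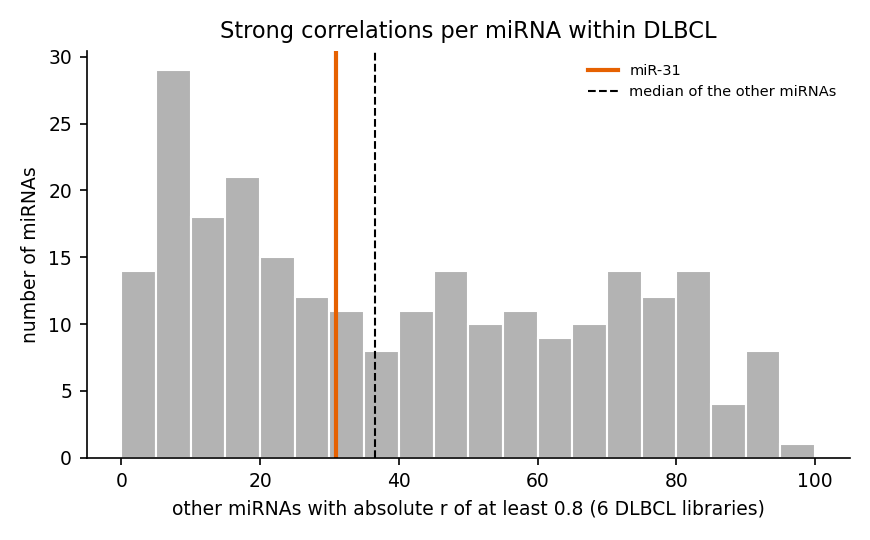
Number of other miRNAs with an absolute r of at least 0.8 over the 6 DLBCL libraries (horizontal axis), counted for each of the other 246 miRNAs (grey bars, number of miRNAs on the vertical axis) and for miR-31 (orange line). miR-31 has 31, below the dashed median of 36.5.

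The miRNA most like miR-31 among the 160 with a mean of at least 10 CPM in DLBCL was miR-339. It was at 156, 151, 117, 448, 75.9 and 458 CPM in DLBCL1 to DLBCL6, with r = 0.97 and rho = 0.94. As for miR-31, DLBCL4 and DLBCL6 were the highest and DLBCL5 the lowest. Its healthy libraries were at 154, 327, 243 and 379 CPM, within the range of the DLBCL ones. The fold change of miR-339 was -0.23 (SE 0.55).

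miR-30b followed, at 664, 613, 388, 1558, 154 and 1277 CPM in DLBCL1 to DLBCL6 (r = 0.95, rho = 0.89). It was the only one of the first 5 whose range in DLBCL was as wide as that of miR-31. miR-362 (r = 0.95), miR-16 (r = 0.92) and miR-340 (r = 0.90) had the same libraries at the top but spanned narrower ranges. miR-16, which targets the survival gene BCL2, lay between 767 and 1821 CPM, and miR-362 between 51.7 and 111 CPM. The fold changes of miR-30b, miR-362, miR-16 and miR-340 over healthy nodes were 0.41, 0.53, -0.27 and -0.19.

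The miRNAs most opposed to miR-31 were miR-99b (r = -0.92), miR-132 (r = -0.91), miR-320 (r = -0.90), miR-187 (r = -0.90) and miR-148a (r = -0.88). miR-99b, whose family targets MTOR, was at 679, 908, 1451, 283, 2081 and 478 CPM in DLBCL1 to DLBCL6. miR-132 was low, at 9.29, 15.1, 13.8, 3.95, 22.4 and 7.68 CPM. Each of these 5 was highest in DLBCL5, the library lowest in miR-31, and lowest in DLBCL4 or DLBCL6. miR-187 spanned the most, from 1.09 CPM in DLBCL6 to 112 CPM in DLBCL5.

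**Figure D5:**
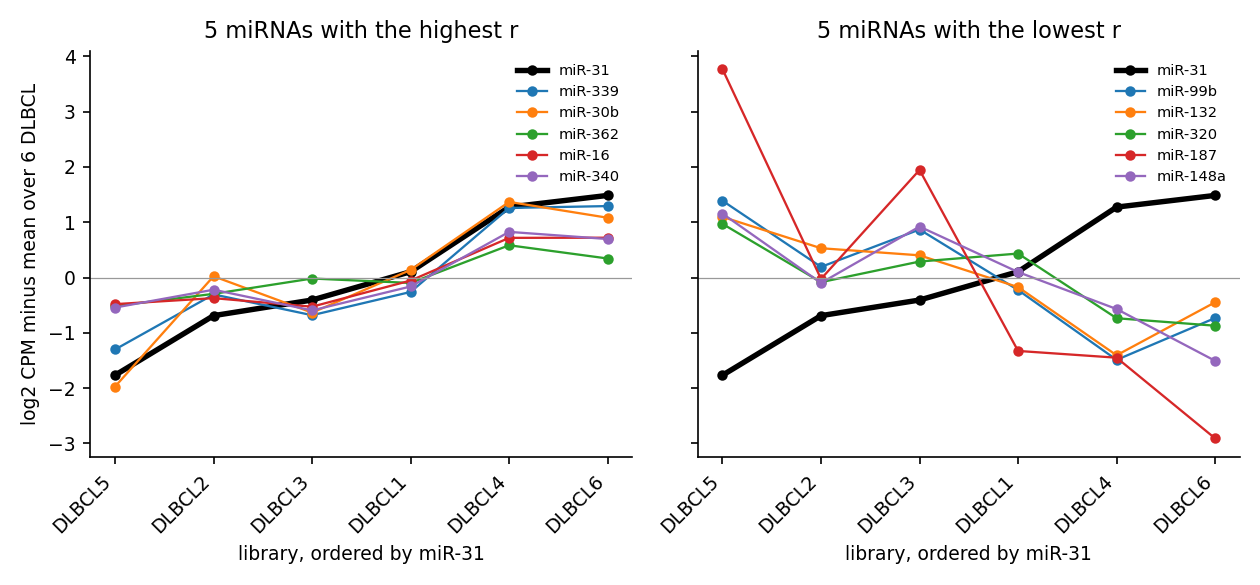
Log2 CPM minus its mean over the 6 DLBCL libraries (vertical axis) for miR-31 (black) and the 5 miRNAs with the highest r (left) and the lowest r (right), with libraries in the order of miR-31. The left lines climb from DLBCL5 to DLBCL4 and DLBCL6; the right lines descend, miR-187 the most.

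Without DLBCL5 and DLBCL6, r over the other 4 was 0.92 for miR-339, 0.89 for miR-30b, 0.95 for miR-362, 0.97 for miR-16 and 0.91 for miR-340. It was -0.92 for miR-99b and -0.997 for miR-132, but -0.70 for miR-320, -0.66 for miR-187 and -0.65 for miR-148a. The last 3 rest in part on the outer libraries. With the mean of each Q30 group removed, r was 0.88 for miR-339, 0.87 for miR-30b and -0.86 for miR-187, and these were the only 3 of the 31 that stayed at 0.8 or beyond. 8 of all 246 miRNAs reached 0.8 in this form. Over the 4 libraries of the higher Q30 group, too few for a test, r was 0.88 for miR-339, 0.89 for miR-30b, 0.90 for miR-362, 0.65 for miR-16 and 0.55 for miR-340. It was -0.84 for miR-99b, -0.98 for miR-132, -0.60 for miR-320, -0.86 for miR-187 and -0.62 for miR-148a. The sign was the same for all 10, and the 2 libraries of the lower Q30 group allow no r. The part of the Q30 group in the covariation was not tested.

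None of the 31 correlates was a DEM, against 5.67% of all miRNAs tested. Their median fold change was 0.21 for the 18 positive and 0.79 for the 13 negative ones, beside 0.13 for all 247. The same empty overlap means that none of the other 13 DEMs reached an absolute r of 0.8 with miR-31 in DLBCL. Of all 246 other miRNAs, 12.6% did. At such shares few shared miRNAs would be looked for, so their absence does not show that the sets are separate. The closest was miR-451 with r = -0.71, followed by miR-151 with 0.56. miR-451 was lowest in DLBCL4 at 4563 CPM and in DLBCL6 at 9065 CPM, the 2 libraries highest in miR-31, and highest in DLBCL1 at 33752 CPM. miR-34a had r = 0.51 and rho = 0.77.

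The study's text names 10 other miRNAs beside miR-31 as promoters of growth in DLBCL. It chose them on these samples, so their direction is not independent evidence. 4 of the 10 were DEMs, all higher in DLBCL (miR-1839, miR-192, miR-34a and miR-451), beside 3.64% called higher among all miRNAs tested. miR-1839 lost its call in 8 of 20 alternatives, and miR-192 and miR-34a in 9 each. The median fold change of the 10 was 1.88 beside 0.13 for all. Members of the miR-17-92 cluster and its relative, which MYC switches on, did not pass the test: miR-17 was at 1.61, miR-18a at 1.78, miR-19b at 1.76, miR-20a at 1.95, miR-92a at 1.81 and miR-106a at 2.16 (adjusted p = 0.0565 to 0.128, edgeR). In the lower Q30 group only (DLBCL4 and DLBCL6 against the healthy nodes), all of them except miR-92a passed both thresholds. Their fold changes there were 2.12 (miR-17) to 2.97 (miR-106a), with adjusted p = 0.0119 to 0.0363 (edgeR). miR-92a was at 1.07 (adjusted p = 0.0619, edgeR). That fit called 46 miRNAs in all. On simulated data the main fit, over all 10 libraries, recovered 38% of miRNAs with a log2 fold change of 2. A missing call thus does not show equal levels. The study's RT-qPCR reported each of these miRNAs as significantly higher in DLBCL. Inside DLBCL, miR-18a had r = 0.81 and miR-20a r = 0.76 with miR-31, while miR-92a of the same cluster had r = -0.21.

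miRNAs tied to the pathways that miR-31 is known to touch are counted here beside the 5.67% of DEMs among all miRNAs tested. Of 7 NF-kB miRNAs, 1 was a DEM: miR-146a, which NF-kB induces and which restrains it, fell by 1.46 on the log2 scale (SE 0.35, adjusted p = 0.0397, edgeR). It was at 1695 to 5985 CPM in DLBCL and 8649 to 11041 CPM in healthy nodes, without overlap, and its r with miR-31 was -0.48. Of 11 miRNAs that repress RAS genes, 0 were DEMs, with a median fold change of -0.12. The 7 let-7 members had r values with miR-31 in DLBCL from -0.84 (let-7d) to 0.45 (let-7b). Of 5 miRNAs that, like miR-31, repress RASA1, 0 were DEMs. The most abundant of those, miR-21, had a fold change of 0.11 (SE 0.35) and r = -0.79 with miR-31. The others went both ways, with r = 0.83 for miR-335, 0.19 for miR-223, -0.49 for miR-182 and -0.91 for miR-132. The adjusted p of these 2 lists was above 0.05 for every member in edgeR, which does not show that the members had equal levels.

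Of the miRNA genes near MIR31, miR-491 and miR-876 were looked at because their human genes lie on the same chromosome arm, and both were nearly absent. miR-491 had at most 5 reads in any library and miR-876 had 0 reads in 9 libraries and 3 in Healthy3, so neither was tested. No likeness with miR-31 could be read from such counts. MIR874 lies on the far side of MIR491 in the order of miRNA genes. miR-874, named after its values were seen, was at 10.4 ± 7.13 CPM in DLBCL (SD, n = 6) and 9.95 ± 3.01 CPM in healthy nodes (SD, n = 4), and its r with miR-31 over the DLBCL libraries was -0.26.

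Markers of other cell types were set beside miR-31 as summed CPM. The epithelial list, of interest because miR-31 is abundant in epithelia, was at 18.5 to 130.2 CPM in DLBCL and 21.4 to 32.4 CPM in healthy nodes. In DLBCL4 and DLBCL6, the libraries highest in miR-31, it was at 21.7 and 30.2 CPM, and the highest value was in DLBCL3. miR-200b was at 0 in 9 libraries, miR-429 in 6, miR-205 in 4 and miR-200a in 2. Only 3 of its 7 miRNAs were tested, and 0 were DEMs, beside 5.67% of all miRNAs tested. Over the DLBCL libraries the sum had r = -0.46 and rho = -0.09 with miR-31. The part of epithelial cells in the level of miR-31 was not tested.

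In the red blood cell list 3 of 4 miRNAs were DEMs, all higher, beside 3.64% called higher among all miRNAs tested. Of these, miR-486 and miR-486-3p had nearly the same counts and are not separate signals. Each lost its call in 8 of 19 alternatives. The sums were 5740 to 48886 CPM in DLBCL and 873 to 1278 CPM in healthy nodes. They count both miR-486 and miR-486-3p, which were at 17490 and 17133 CPM in DLBCL3. That library had the highest sum only because both were counted. Inside DLBCL the sum, carried by miR-451 and the 2 miR-486 entries, had r = -0.72 with miR-31, with the 2 lowest sums in DLBCL4 and DLBCL6. miR-144 of the same list, at 2.35 to 24.4 CPM in DLBCL, had r = 0.62 and was highest in DLBCL6. The lymphocyte list was at 9138 to 22448 CPM in DLBCL and 14280 to 30138 CPM in healthy nodes. In it 1 of 5 was a DEM, beside 5.67% of all miRNAs tested. That was miR-150, a miRNA of mature lymphocytes, which fell by 2.97 on the log2 scale (SE 0.50, adjusted p = 0.00687, edgeR). The parts of red blood cells and of lymphocyte types in the level of miR-31 were not tested.

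The other lists held 0 DEMs, beside 5.67% of all miRNAs tested. Stroma and vessels (6 tested) were at 19095 to 71059 CPM in DLBCL and 27147 to 55728 CPM in healthy nodes. Skeletal muscle (3 of 4 tested) was at 9.42 to 359.9 and 16.3 to 76.5 CPM, and myeloid cells (2 tested) at 4.38 to 88.8 and 18.3 to 41.7 CPM. The sums of the 4 pancreatic miRNAs, carried by miR-216b and miR-217, did not overlap, at 32.6 to 663 CPM in DLBCL and 916 to 1951 CPM in healthy nodes, and had r = -0.04 with miR-31. 3 of the 4 fold changes were below 0, while miR-375 was at 2.04 (SE 1.60). The stromal and vessel sum had r = -0.65 with miR-31, but it is nearly all miR-143 (15649 to 69211 CPM in DLBCL, r = -0.72). Of the other members, miR-126 had r = 0.62, miR-145 0.46, miR-199 0.40, miR-214 0.31 and miR-218 -0.07.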

How the data were processed

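Small RNA libraries (NEBNext kit) of 6 DLBCL and 4 healthy nodes were analysed, grouped by the labels. Per the study's methods, the authors mapped reads with Bowtie 0.12.9 (build CanFam3.1, per the labels) and counted mature miRNAs of miRBase 20. They deposited raw read counts and TPM, which equalled the count per 1000000 miRNA reads to within 4.55e-05. Paralogous miRNAs may share reads.

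Counts were fitted in edgeR 4.0.16 (R 4.3.3; TMM, filterByExpr, quasi-likelihood test, Benjamini-Hochberg over 247 miRNAs). Log2 CPM used a prior count of 2. Alternatives used DESeq2 1.42.0, limma 3.58.1 and other scalings, filters and samples. On simulated data for this comparison (247 miRNAs), the fit recovered 38% of miRNAs with a log2 fold change of 2 and 87.5% with 3. No libraries of one group agreed within sampling noise (chi-square per degree of freedom at least 1865). The labels name separate samples, and p-values measure the spread between these dogs.

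Named miRNAs are miR-31, the 5 highest and 5 lowest in r, those with larger fold changes, neighbours in level, DEMs and members of the 12 lists. miR-31, the lists and the tests were chosen with earlier results of these data known. miR-664, miR-874, MIR8831 and the reference miRNAs were named afterwards. Sequences and coordinates were not used here.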

Additional observations from a re-analysis of the deposited data

Results flagged for a closer look

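Of 46 groups of values examined, 6 held a library far from the rest of its group. The rule flags about 1 in 20 when values are normally distributed and groups are independent. These values were unlogged and some groups share miRNAs, so no excess can be read from the count. Beside miR-31, which had none, 4 of the 6 were in DLBCL5, the DLBCL library lowest in miR-31. There, miR-187 was at 112 CPM (next 31.6), the NF-kB list summed to 277610 CPM (next 141778), the list that represses RASA1 to 257613 CPM (next 133503) and the stroma and vessel list to 71059 CPM (next 37069). Of the last sum, 69211 CPM was miR-143 alone, and miR-126 was at 31.9 CPM there. The NF-kB and RASA1 lists share miR-21, which was at 257265 CPM in DLBCL5 and made up most of both sums. Skeletal muscle miRNAs summed to 359.9 CPM in DLBCL3 (next 85.8) and to 76.5 CPM in Healthy2 (next 25.9).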

How the results depend on the processing

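The fold change of miR-31 stayed above 2 under every alternative run, from 2.76 to 4.62 (log2). The 14 DEMs became 38 with DESeq2, 46 with limma-voom, 8 with DESeq2's size factors, 23 with total reads, 7 with the Q30 group as a covariate, 46 in the lower Q30 group only, 26 with DLBCL1, DLBCL2, DLBCL3 and DLBCL5 only, and 1 to 23 with 1 library left out. The 31 correlates became 19 by rho, 69 with total reads, 8 with Q30 means removed, and 23 to 63 with 1 library left out. miR-183 reversed, to -1.52 with the Q30 covariate and -1.53 in the lower Q30 group. The causes were not tested. Of 309 further values for 16 single miRNAs, 201 kept their call, 98 lost it, 8 gained it and 2 reversed. The r of the 10 named correlates kept its sign in all 130 values. With the replicate number as a block, which keeps only the numbers both groups share, miR-451 was the only DEM. The fold change of miR-31 was 2.85 there, without a call. The numbers do not pair these separate dogs: deviations of same-numbered libraries correlated at 0.26, -0.01, -0.30 and -0.33. Depth limits little for miR-31, whose counting error was 1.25% to 10.7% of its level; the number of dogs limits the correlations.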

Other observations

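Among the healthy nodes, Healthy5 was highest in miR-31, with the highest TMM factor (1.11) and the lowest miR-148a share (51.5%) of the 4. For 27 of the 31 miRNAs with an absolute r of at least 0.8 to miR-31 in DLBCL (87.1%), Healthy5 was also the extreme healthy library in the direction that r gives, as it was for all 10 named correlates. Among the 215 other miRNAs this held for 107 (49.8%). The count was made after the data had been seen, the healthy libraries played no part in r, and the miRNAs are not independent of each other or of library composition.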
